A study of Mus musculus with 5 samples.

Results

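The Myc, Mycn, Ccnd1 and Ccnd2 loci were read as 4 windows of the mouse genome (build mm9) in 3 ChIP-seq peak lists of β-catenin. A peak was a member when its summit, the position where its tags (aligned reads) pile up highest, lay in a window. The windows were chr15:61700000-61950000 for Myc, chr12:12840000-13050000 for Mycn, chr7:152050000-152190000 for Ccnd1 and chr6:127010000-127180000 for Ccnd2, 770 kb in all. They held 62 of the 44750 deposited peaks: 27 of 16069 in the anti-FLAG list under CHIR99021, 21 of 15947 in the streptavidin list under CHIR99021 and 14 of 12734 in the DMSO list. Where peaks of the lists overlapped or touched they were merged, which gave 42 regions of 33485.

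All cells were V6.5 mouse embryonic stem cells whose Ctnnb1 gene, which encodes β-catenin, carries a knocked-in biotin-acceptor and triple FLAG tag, and with the BirA ligase that biotinylates the tag. They grew in serum and LIF on feeder cells and were enriched for stem cells by letting the feeders settle on plates. Peak lists hold no expression values, so neither the cell type nor any feeder cells left could be checked. CHIR99021, a GSK3 inhibitor, was given at 3 µM for 16 hours per the treatment protocol (the extraction protocol writes 3 mM and the series text 24 hours), and DMSO was the vehicle. Each ChIP started from 10000000 cells. The 3 ChIP libraries were anti-FLAG with CHIR99021, streptavidin with CHIR99021 and streptavidin with DMSO, each alone in its group, with 2 input libraries as controls of the peak calls. The label gives streptavidin for the DMSO library, while the name of its peak-calling run says FLAG. No library of cells without the tag was analysed here, and every value below lacks a replicate error.

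β-Catenin has no DNA-binding domain of its own and reaches chromatin mainly through the TCF/LEF factors, after Wnt signalling or GSK3 inhibition keeps it from being degraded. Myc encodes c-MYC, a basic helix-loop-helix factor that pairs with MAX on E-boxes and drives growth and proliferation. Mycn encodes its paralogue N-MYC, which is strongly expressed in embryonic and neural progenitor cells. Ccnd1 and Ccnd2 encode cyclins D1 and D2, which activate CDK4 and CDK6 so that RB is phosphorylated and cells enter S phase. MYC and CCND1 are textbook Wnt targets in colon cancer cells.

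No mm9 gene annotation was used, so peaks carry coordinates only, and whether one lies in a promoter, intron or intergenic stretch was not assigned. In RefSeq's gene order on another build, GRCm38.p6, the next protein-coding genes were A1bg and Gsdmc around Myc, Cyria and Ddx1 around Mycn, LTO1 and Tpcn2 around Ccnd1, and Tigar and Parp11 around Ccnd2. The noncoding gene Pvt1 follows Myc directly. A window is therefore named for its gene, and its peaks are not assigned to that gene.

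The RefSeq promoter table matched 1 of the 4 genes, Mycn. Its upstream stretch was the only one of the 4 genes that could be searched, and is shown because it holds a TCF/LEF core motif. The 250 bases before the gene start (GRCm38.p6 chr12:12941837-12942086, minus strand, coordinates that cannot be set against the mm9 peaks) read 5′ to 3′ as follows, with the motif in capitals.
Mycn upstream: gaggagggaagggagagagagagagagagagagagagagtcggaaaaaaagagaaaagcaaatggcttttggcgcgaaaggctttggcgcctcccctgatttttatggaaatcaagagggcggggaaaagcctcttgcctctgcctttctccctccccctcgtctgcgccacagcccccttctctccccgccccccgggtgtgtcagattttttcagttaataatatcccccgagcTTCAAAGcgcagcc

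The capitals are TTCAAAG, the reverse complement of CTTTGAA, 14 to 8 bases before the start. Both strands were searched, and CTTTGAA was present in the same stretch of 4.46% of 32851 RefSeq promoters. The related CTTTGAT (3.21% of promoters) and the E-box CACGTG (6.02%) were not found in these letters. The match is a description of sequence and not a mapped site.

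The map of tags along the windows shows how the 62 peaks were laid out. Each CHIR99021 list had 1 region that stood above the rest of its window. At Myc, all but 1 of the other CHIR99021 peaks lay on the high-coordinate side of the leading summit. At Ccnd1, all other CHIR99021 peaks lay on the low-coordinate side, and the last part of the window held none. Ccnd2 held the fewest CHIR99021 peaks, 11.8 per Mb by anti-FLAG and 5.88 by streptavidin, against 6.27 and 6.22 over the whole lists. It was thus sparse only beside the other windows, which held 28.6 to 47.6 per Mb in these lists.

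**Figure D1:**
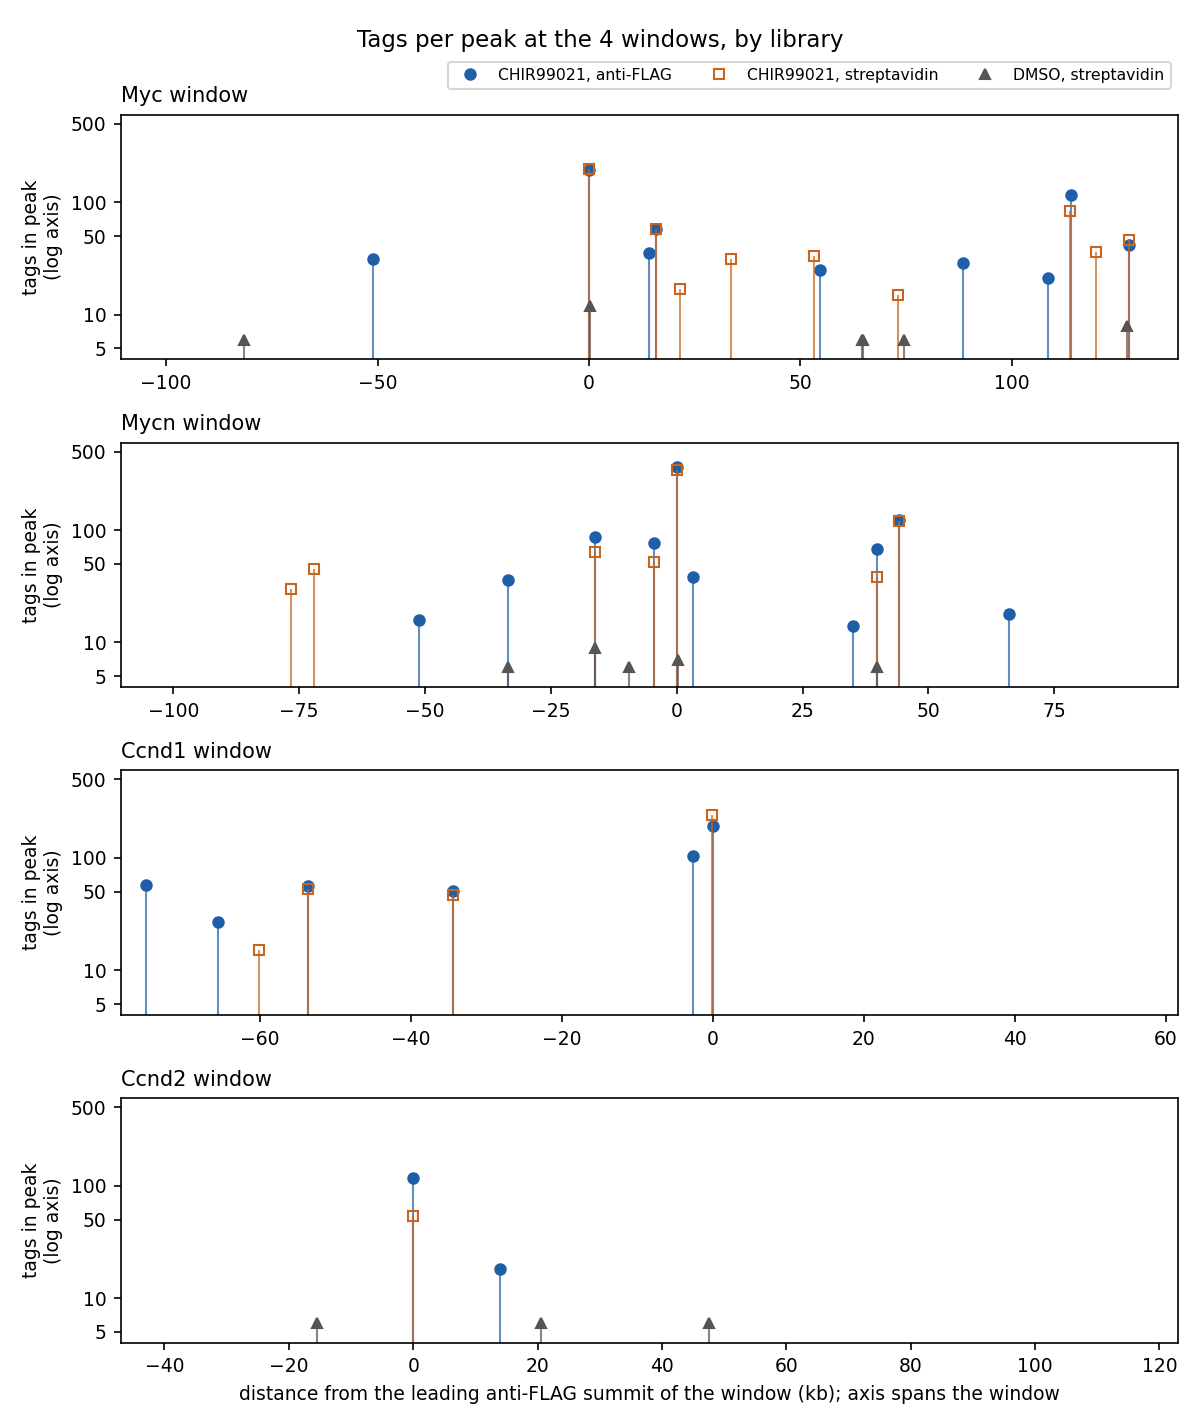
Tags per peak (log axis) against distance in kb from the leading anti-FLAG summit, 1 panel per window. Circles are anti-FLAG, open squares streptavidin and triangles DMSO peaks. The leading regions at distance 0 hold 365 anti-FLAG tags at Mycn and 117 at Ccnd2, while DMSO peaks stay between 6 and 12 tags.

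The Myc window held 9 anti-FLAG peaks of 21 to 194 tags (median 35.0) and 9 streptavidin peaks of 15 to 196 tags (median 36.0). Its leading region, chr15:61809734-61811167, had 194 anti-FLAG tags, 196 streptavidin tags and a DMSO peak of 12 tags. The anti-FLAG summit lay at 61810636 and the streptavidin summit at 61810637, 1 bp apart, and the DMSO summit 111 bp from the first. The called peaks were 966 bp long by anti-FLAG and 1434 bp by streptavidin, longer than 62.4% and 84.5% of their lists. Fold enrichment over the local background was 34.01 by anti-FLAG and 41.06 by streptavidin, against list medians of 8.13 and 8.56. Per kb of called peak it had 201 and 137 tags, where the list medians were 43.9 and 35.1.

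The other shared Myc regions were weaker. About 15.9 kb from the leading summit, chr15:61825501-61827162 had 58 tags in each CHIR99021 list and no DMSO peak. At 114 kb, chr15:61923475-61925000 had 117 anti-FLAG and 83 streptavidin tags, again with no DMSO peak. The farthest, chr15:61937756-61938791 at 128 kb, had 42 and 46 tags and a DMSO peak of 8 tags. Its DMSO summit lay 411 bp below the anti-FLAG one, so the DMSO call sat at the edge of the region. Per 1000000 unique tags of each library, streptavidin was 0.957 to 1.48 times anti-FLAG at these 3 sites, each with a counting interval that includes 1. The DMSO calls did not follow the order of the CHIR99021 tags.

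Between and around these regions, 5 anti-FLAG peaks (21 to 35 tags) and 5 streptavidin peaks (15 to 36 tags) of the Myc window were called in 1 list each. A pair of them were neighbours rather than partners: chr15:61864878-61865765 (anti-FLAG, 25 tags) and chr15:61863294-61864400 (streptavidin, 33 tags) had 477 bp between them. The anti-FLAG peak chr15:61824236-61825115 (35 tags) ended 385 bp before the nearest streptavidin peak. The other 4 DMSO peaks of the window, of 6 tags each, lay outside every CHIR99021 peak.

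Mycn was the fullest window by tags, with 10 anti-FLAG peaks holding 841 tags and 7 streptavidin peaks holding 695. The leading region, chr12:12947850-12951222, spanned 3373 bp and had 365 anti-FLAG tags, 345 streptavidin tags and a DMSO peak of 7 tags. Among the 9113 regions of both CHIR99021 lists it ranked 93rd by anti-FLAG and 74th by streptavidin tags. Fold enrichment was 21.78 and 25.41. The anti-FLAG and streptavidin summits lay 21 bp apart, and the DMSO summit lay 259 bp from the anti-FLAG one.

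The other shared regions of Mycn flanked the leader on both sides. On the low-coordinate side, chr12:12933506-12934770 had 87 anti-FLAG, 64 streptavidin and 9 DMSO tags, and chr12:12944999-12946551 had 76 and 52 tags with no DMSO peak. On the other side, chr12:12989504-12990440 had 68, 38 and 6 tags, and chr12:12993228-12995029 had 123 and 121 tags with no DMSO peak. The last of these was second to the leader in both lists by tags, yet it had no DMSO peak, whereas the region of 68 and 38 tags next to it did. These 5 shared regions covered 60.4 kb from first to last summit.

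In the Mycn window 5 anti-FLAG peaks of 14 to 38 tags had no streptavidin partner. Of these, chr12:12916352-12917206 (36 tags) contained a DMSO peak of 6 tags whose summit lay 72 bp from its own. It was the only region of the 4 windows held by anti-FLAG and DMSO alone, a kind with 162 regions in the whole series. Just below the Mycn window, anti-FLAG peaks at chr12:12826306-12827495 (52 tags) and chr12:12832928-12833941 (48 tags) also overlapped a DMSO peak and no streptavidin peak. The streptavidin list had peaks of its own at chr12:12873315-12874315 (30 tags) and chr12:12877595-12878675 (45 tags), -76.6 and -72.2 kb from the leading summit. The latter had a fold enrichment of 11.19, higher than any other streptavidin peak without an anti-FLAG partner in the 4 windows. A DMSO peak of 6 tags at chr12:12940771-12940845 lay in no CHIR99021 peak.

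At Ccnd1 the leading region was broad, and low in fold enrichment. It spanned 5125 bp (chr7:152124760-152129884) and was called as 2 anti-FLAG peaks of 105 and 191 tags, but as a single streptavidin peak of 239 tags and 4808 bp. By tags it ranked 182nd by anti-FLAG (296 together) and 215th by streptavidin of the 9113 shared regions. Its fold enrichments were 7.82 and 7.31 for the anti-FLAG peaks and 7.67 for streptavidin, below the list medians. The other measures stood higher: per kb of called peak it had 59.8 anti-FLAG and 49.7 streptavidin tags, above the list medians of 43.9 and 35.1. The p scores of its leading peaks exceeded those of 84.1% and 91.0% of their lists. The main anti-FLAG summit lay 48 bp from the streptavidin summit, and the second anti-FLAG summit lay 2.60 kb away. No DMSO peak was called anywhere in the window.

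The other shared Ccnd1 regions had similar raw tag counts in both lists. One, chr7:152074240-152075530, had 56 anti-FLAG and 53 streptavidin tags, and the other, chr7:152092769-152094404, had 51 and 47. Per 1000000 unique tags, streptavidin was 1.28 and 1.24 times anti-FLAG there, with counting intervals that include 1. The anti-FLAG list added chr7:152052906-152054004 with 58 tags and chr7:152062436-152063213 with 27, and the streptavidin list added chr7:152068061-152068552 with 15. That peak of 58 tags was the strongest of all unpartnered CHIR99021 peaks in the 4 windows by tags. The nearest streptavidin peak lay 8.50 kb from it.

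Ccnd2 had 1 shared region in 170 kb, chr6:127056110-127057858, with 117 anti-FLAG and 54 streptavidin tags. Fold enrichment was 19.20 and 15.62, the summits lay 42 bp apart, and no DMSO peak overlapped it. The only other CHIR99021 peak was an anti-FLAG one of 18 tags, chr6:127070552-127071080. The 3 DMSO peaks of the window had 6 tags each and lay outside CHIR99021 peaks.

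Ordered by tags in the leading region, the loci ran Mycn, Ccnd1, Myc, Ccnd2 in both CHIR99021 lists. Exact Poisson intervals (95%, counting error only) were 329 to 404, 263 to 332, 168 to 223 and 96.8 to 140 by anti-FLAG in that order. By streptavidin they were 310 to 383, 210 to 271, 170 to 225 and 40.6 to 70.5. Each neighbour was set against the next as a ratio of tags with an exact conditional interval. By anti-FLAG, Mycn had 1.23 times the tags of Ccnd1 (1.05 to 1.44), Ccnd1 1.53 times those of Myc (1.27 to 1.84) and Myc 1.66 times those of Ccnd2 (1.31 to 2.10). By streptavidin the ratios were 1.44 (1.22 to 1.71), 1.22 (1.01 to 1.48) and 3.63 (lower bound 2.67). The anti-FLAG place of Ccnd1 rested on adding its pair of called peaks. With the leading peak of each region alone, an alternative chosen after seeing the data, Myc (194 tags) and Ccnd1 (191) had a ratio of 1.02 (0.827 to 1.25), so that their order was not settled. The order by tags also depended on the called width. Per kb of called peak it was Myc, Mycn, Ccnd2, Ccnd1 in both lists. By anti-FLAG these had 201, 123, 66.9 and 59.8 tags per kb, and by streptavidin 137, 103, 53.6 and 49.7. The intervals do not account for picking each leading region as the highest of its window. How far these levels would vary between replicate libraries is not known.

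The order by fold enrichment also differed from that by tags: Myc, Mycn, Ccnd2, Ccnd1 in both lists. The plot of list standing gives the same contrast as shares of each list, and adds the p score, which is 10 times −log10 of the peak-calling p-value. The leading Ccnd1 anti-FLAG peak had more tags than 96.9% of its list but a higher fold than only 39.2%. For streptavidin these were 98.7% and 39.4%. The leading Myc peaks stood above 97.0% and 97.8% by tags and above 97.6% and 98.4% by fold. Leading regions were picked by their tags, so a high standing by tags was partly set by that choice. The fold is the authors' value for a single peak and is compared here only within its list. Both lists were called against the same input, so their common order by fold is not fully independent.

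**Figure D2:**
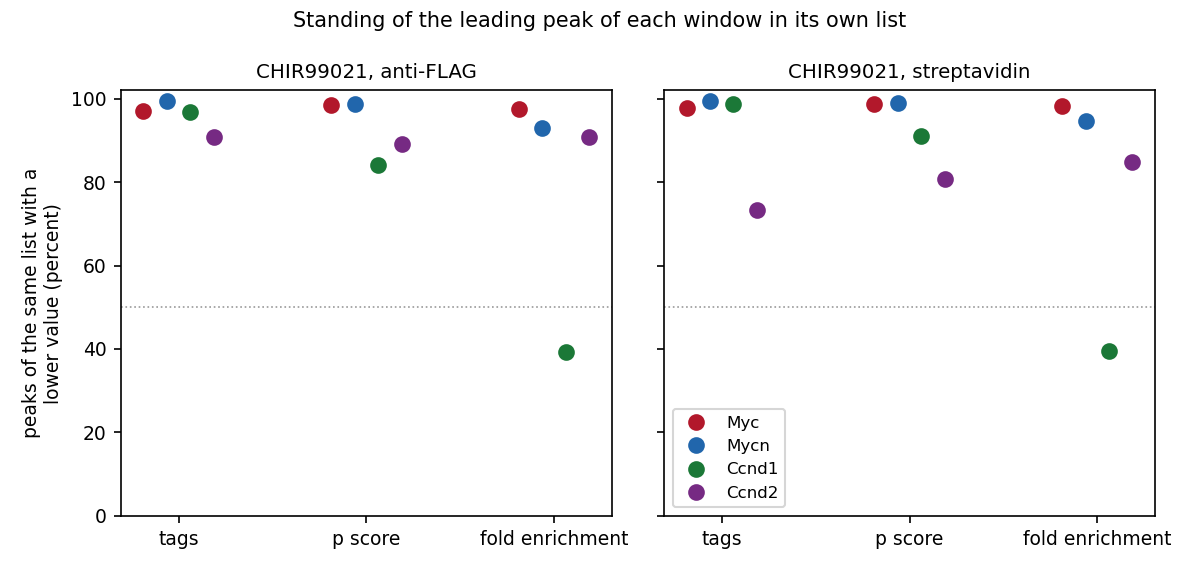
Share of peaks in the same list with a lower value (percent) for the leading peak of each window, by tags, p score and fold enrichment, with 1 panel per CHIR99021 capture and a dotted line at the middle of the list. Myc and Mycn stand near the top throughout, while Ccnd1 drops to 39.2% and 39.4% by fold.

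The first comparison set the captures against each other under CHIR99021. Both lists were called against the same input, so their agreement is not fully independent. Of the 27 anti-FLAG peaks in the windows, 14 (51.9%, exact Clopper-Pearson interval 31.9 to 71.3%) overlapped a streptavidin peak by at least 1 bp, against 57.6% over the whole list. Of the 21 streptavidin peaks 13 (61.9%, interval 38.4 to 81.9%) overlapped an anti-FLAG peak, against 57.8%. Both shares were close to their background, which is not matched for tags, and say nothing particular about these loci. By locus, 4 of 9 anti-FLAG peaks at Myc, 5 of 10 at Mycn, 4 of 6 at Ccnd1 and 1 of 2 at Ccnd2 had a partner.

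Sharing went with tag number. Anti-FLAG peaks with a partner had 42 to 365 tags (median 96.0), and those without had 14 to 58 (median 27.0). For streptavidin the ranges were 38 to 345 (median 58.0) and 15 to 45 (median 30.5). Of the 14 anti-FLAG peaks of at least 50 tags, 13 had a partner (85.7% in the whole list), the exception being the Ccnd1 peak of 58 tags. None of the 8 anti-FLAG peaks under 30 tags had one, where the whole list gave 26.1%, inside the interval of 0 to 36.9% for the windows. With 30 to 49 tags, 1 of 5 anti-FLAG peaks had one (interval 0.505 to 71.6%), against 59.2% of the whole list. In the same class 3 of 8 streptavidin peaks did (8.52 to 75.5%), against 65.9%. When only peaks with p scores from 100 up were kept, 91.7% of the remaining 12 anti-FLAG peaks were shared (interval 61.5 to 99.8%), against 71.2% of the whole list under that limit. With a fold enrichment of at least 10 it was 85.7% of 7 (42.1 to 99.6%), against 74.2%. The whole-list shares lay inside these intervals.

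**Figure D3:**
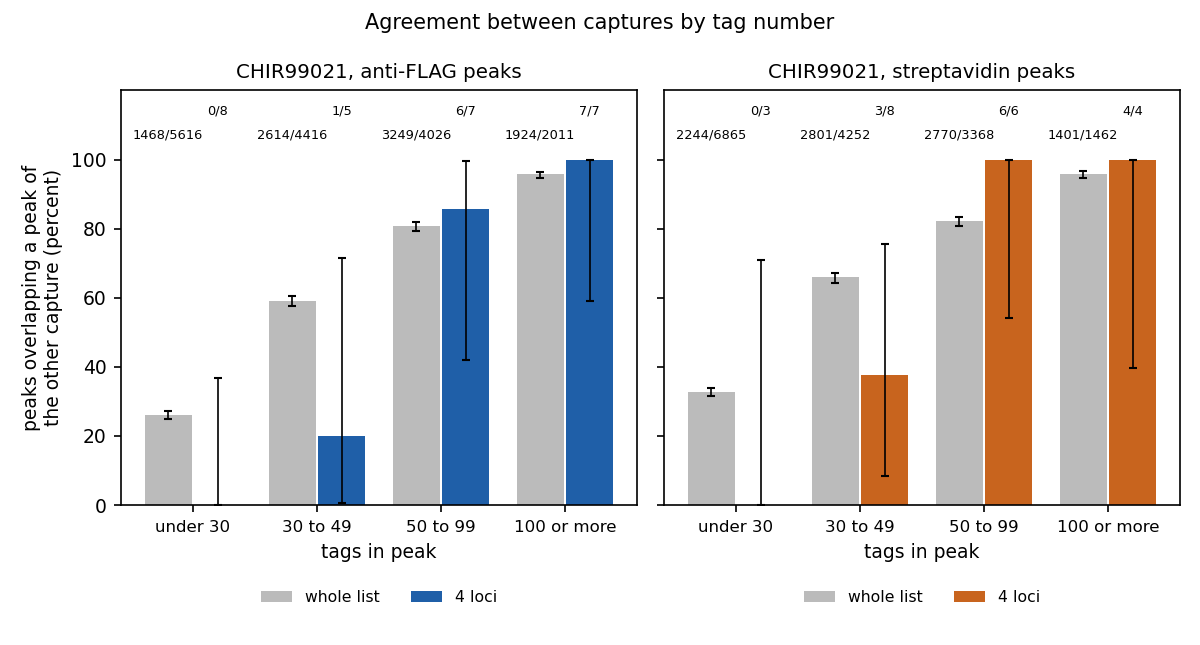
Percent of peaks that overlap a peak of the other capture, by tags in the peak, for the whole list (grey) and the 4 windows (colour). Bars give the share, whiskers exact 95% intervals and the small print over each pair the counts. Above 50 tags the windows have 6 of 7 and 7 of 7 anti-FLAG peaks shared, and below 30 tags 0 of 8.

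The 13 shared regions were also compared by level, as tags per 1000000 unique tags of each library, called the scaled level here (16100920 for anti-FLAG and 11934863 for streptavidin). Over all 13 the ratio of streptavidin to anti-FLAG was 1.14 (exact interval 1.06 to 1.23, counting error only), and over all 9113 shared regions it was also 1.14. Ratios of single regions ran from 0.623 to 1.48. None of the 13 exceeded 1.5, which 16.0% of all shared regions did, and 1 fell below 1/1.5, as did 4.41%. The interval lay above 1 for 3 of 13 regions (18.4% of all) and below 1 for 1 (3.76% of all).

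The regions with an interval above 1 were the leading ones of Myc (scaled levels 12.0 by anti-FLAG and 16.4 by streptavidin, ratio 1.36, interval 1.11 to 1.67) and Mycn (22.7 and 28.9, ratio 1.28, 1.10 to 1.48) and the second Mycn region (7.64 and 10.1, ratio 1.33, 1.02 to 1.72). All 3 intervals include the series-wide ratio of 1.14. Ccnd1's leading region gave scaled levels of 18.4 and 20.0 and a ratio of 1.09 (0.915 to 1.30). The Ccnd2 region went the other way, with scaled levels of 7.27 and 4.52 and a ratio of 0.623 (0.442 to 0.867). A lower ratio was found in only 2.84% of shared regions. These differences depended on the called width. At Ccnd2 the anti-FLAG peak was 1749 bp long and the streptavidin peak 1008 bp, and per kb of called peak the ratio was 1.08 (interval from 0.768 to above 1). At the leading Myc region, called wider by streptavidin, it was 0.918 (0.749 to 1.13), also on the other side of 1. For the leading Mycn region it was 1.13 (0.971 to 1.31) and for the second Mycn region 1.29 (0.998 to 1.68). In all, 6 of the 13 regions changed side per kb (31.6% of all shared regions did). No interval of the 13 then lay above 1 (9.21% of all) or below 1 (2.86% of all).

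**Figure D4:**
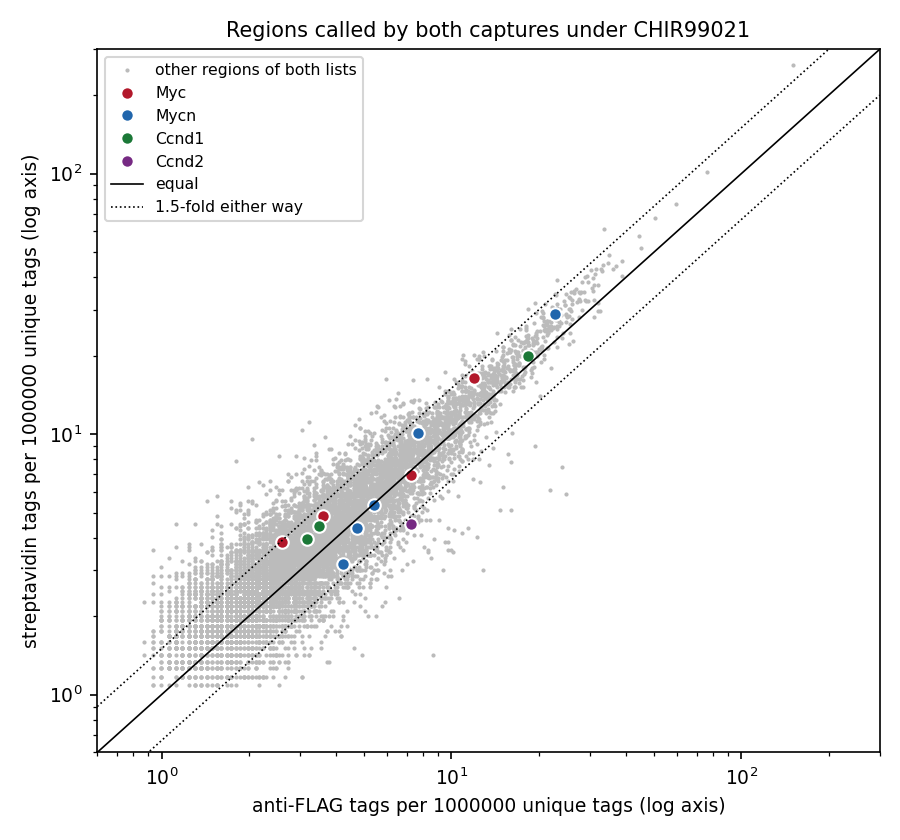
Streptavidin against anti-FLAG tags per 1000000 unique tags (log axes) for the 9113 regions called by both captures. Grey points are regions elsewhere, coloured points those of the 4 windows, the solid line marks equal levels and the dotted lines 1.5-fold either way. Of the 13 coloured points only that of Ccnd2, at 7.27 and 4.52, lies outside the dotted lines.

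Both captures placed their summits at nearly the same bases. In the 13 shared regions the leading summits lay 1 to 87 bp apart, with a median of 42.0 bp. All 13 were within 100 bp, against 80.4% of all shared regions, whose median was 41.0 bp. The closest was the leading Myc region at 1 bp, followed by the second Mycn region at 15 bp and the leading Mycn region at 21 bp. The widest was chr12:12989504-12990440 at Mycn, at 87 bp.

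The second comparison asked where cells without the inhibitor also had a β-catenin peak. Of the 13 shared regions, 5 (38.5%, interval 13.9 to 68.4%) contained a DMSO peak, against 12.9% of all shared regions, a share just under the lower bound. They were 2 at Myc, 3 at Mycn and none at Ccnd1 or Ccnd2. The share in the whole series rose with tags, so this background is not one figure. It was 35.7% for regions of at least 100 anti-FLAG tags, where the windows had 2 of 6. It was 10.5% for those of 50 to 99 tags, where they also had 2 of 6. Below 50 tags it was 3.83%, and the single such region of the windows, at Myc with 42 tags, had one.

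The same overlaps were also counted from the side of each list, which adds no separate result. These list-wide backgrounds are not matched for tags. Of the anti-FLAG peaks in the windows 6 of 27 overlapped a DMSO peak, against 8.24% of the list, and of the streptavidin peaks 5 of 21 did, against 8.38%. From the DMSO side, 6 of the 14 DMSO peaks in the windows lay in a CHIR99021 peak, against 15.0% of the DMSO list. All 4 with 7 or more tags lay in a peak of either CHIR99021 list, against 34.7% of such DMSO peaks. Each of the 4 lay in a region of both captures, for which no whole-list share was computed. Of the 10 with 6 tags, the lowest count in the list, 2 lay in a peak of either CHIR99021 list (7.06% of such DMSO peaks). DMSO fold enrichments in the windows ran from 9.30 to 43.9. The highest, 43.90, belonged to a 6-tag peak of 43 bp that lay alone, and the lowest, 9.30, to the 12-tag peak on the leading Myc summit. The DMSO peak with most tags was thus the one with the lowest fold.

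DMSO tags cannot be set against CHIR99021 tags as levels. The DMSO peaks were called with a fragment shift of 30 bp, where the CHIR99021 lists used 185 and 214 bp, and were 43 to 103 bp long, and the depth of that library is unknown. At Ccnd1 and in the shared Ccnd2 region no DMSO peak was called, which sets no limit on binding there. Whether β-catenin occupancy at these loci changed with CHIR99021 could not be tested with 1 library per condition.

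Among the anti-FLAG peaks, the authors' false discovery rate did not fall steadily with strength. The leading anti-FLAG peaks of Myc and Mycn had p scores of 1221.03 and 1348.51, the highest of the 27, but false discovery rates of 1.21% and 1.55%. A limit of 1% would drop both and keep 16 of the 27 anti-FLAG peaks (64.8% in the whole list), among them the Ccnd1 peak of 56 tags with a p score of 77.06. By streptavidin both leading peaks had a rate of 0, and 14 of 21 peaks passed (55.4% in the whole list). There the rate broadly rose as the p score fell, to 4.18% at a p score of 52.72.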

How the data were processed

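β-Catenin ChIP-seq peaks of 3 libraries were used. The inputs entered only through the authors' peak calls. The authors called peaks with MACS from ELAND-format alignments, 1 library against 1 input, at a p-value cutoff of 1.00e-05, per the file headers. Both CHIR99021 lists were called against the same input, of 17758366 unique tags. Which MACS version ran was not given in the sources used here. Coordinates are on mm9, per the submitters' processing notes. Per the file headers, the deposited columns are raw tag counts, fold enrichment (a ratio to the local background), a false discovery rate in percent and a p score, which equals −log10 of p multiplied by 10. The DMSO header gives no depth.

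Members had their summit (start plus offset minus 1) in a window. The 4 windows and all lists were chosen with earlier results of these data known. Peaks sharing 1 bp counted as shared. Every region held by 2 lists was named, with the strongest of the others. The leading region had most anti-FLAG plus streptavidin tags per 1000000 unique tags. Intervals (95%) cover counting error only, and tags are not independent molecules. There were no replicates, so no test across samples was made. The planned list of other cell-cycle genes was not run, as no mm9 annotation was used. The overlap and ratio code was tested on simulated lists. The tools were matplotlib 3.10.9, scipy 1.17.1, pandas 2.3.3 and numpy 2.4.6 under Python 3.11.15.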

Additional observations from a re-analysis of the deposited data

How the results depend on the processing

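Stricter peak limits thinned the windows. The whole CHIR99021 lists thinned too, so the counts below are not a result about these loci. In the whole anti-FLAG list of 16069 peaks, 5279 had a fold of at least 10 and 6779 a p score of at least 100. A false discovery rate of at most 1% kept 10417 of them, and 8832 of the 15947 streptavidin peaks. At a fold of at least 10, anti-FLAG peaks at Myc, Mycn, Ccnd1 and Ccnd2 numbered 2, 3, 1 and 1 (7 in all), and streptavidin peaks 2 at Myc and 0 at Ccnd1 (8 in all). At a p score of at least 100 they were 4, 4, 3 and 1 (12), streptavidin peaks were 4 at Myc and 2 at Ccnd1 (13), and DMSO peaks 0 at Myc, Mycn and Ccnd2 (0 in all). At a false discovery rate of at most 1% anti-FLAG peaks were 4 at Myc, 6 at Mycn and 1 at Ccnd2 (16 in all), streptavidin peaks 4 at Myc, and DMSO peaks 0 at Myc, Mycn and Ccnd2 (0 in all). The share of anti-FLAG peaks with a streptavidin partner went from 51.9% to 85.7% at the fold limit and 91.7% at the p score limit. Shared regions went from 13 to 6 at the fold limit, and stayed at 13 when merged without the DMSO library, an alternative chosen after seeing the data. Those with a DMSO peak went from 5 to 3 at the fold limit, 0 at the p score limit, 0 at the false discovery rate limit and 1 with DMSO peaks of at least 10 tags. The highest DMSO p score in the windows, 88.60, already exceeded 93.0% of the DMSO list, and the lowest DMSO false discovery rate was 3.09%. No whole-list share with a DMSO peak was computed under these limits, so the 0 values are not a result about these loci. With anti-FLAG peaks as the unit in place of regions, 3 had both a streptavidin and a DMSO summit within 200 bp. The 0 with 50% reciprocal overlap was fixed by the lengths, since no DMSO peak there exceeded 103 bp and no anti-FLAG peak was under 425 bp, and says nothing about sharing. Unscaled tags, which ignore depth, gave streptavidin to anti-FLAG ratios of 0.932 at Myc, 0.862 at Mycn and 0.841 at Ccnd1, and per kb of called peak the ratio was 1.05 at Myc and 1.08 at Ccnd2. Of 107 values under alternatives 64 stayed within their interval or within 1.5 times. No paired analysis was possible because no group had a second sample. Since the depth behind the DMSO list is unknown, a region with no DMSO call cannot be read as unbound.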

Other observations

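The window edges left strong neighbours out. Within 100 kb of the low-coordinate edge of the Mycn window lay 5 anti-FLAG and 4 streptavidin peaks, 3 of each shared. The strongest, chr12:12793844-12796143 by anti-FLAG (203 tags) and chr12:12793581-12796204 by streptavidin (183 tags), had more tags than any Mycn region but the leading one. Near it, chr12:12810137-12811367 had 89 anti-FLAG tags at a fold of 15.33, and the streptavidin peak there had 88 tags at 16.55. On the other side of Mycn no peak of any list lay within 100 kb, and the next CHIR99021 peaks, of 28 tags in each list, were 315 kb away.

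Below the Ccnd1 window, chr7:152007567-152008478 had 107 anti-FLAG tags at a fold of 17.64, and the streptavidin peak there had 105 tags at 17.09. Both folds exceeded those of all CHIR99021 peaks inside the window. Beside Myc, the low-coordinate side was empty for 100 kb in all 3 lists. The other side held 3 anti-FLAG peaks of 33 to 70 tags, each with a streptavidin partner. It also held 6 streptavidin peaks, of which 3 had an anti-FLAG partner, and 3 DMSO peaks of 6 to 9 tags outside every CHIR99021 peak. Beside Ccnd2, 1 shared region lay on each side, with 44 anti-FLAG and 34 streptavidin tags on the low side and 39 and 48 on the other. Which genes these belong to was not assigned.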
